A study of Rattus norvegicus with 12 samples.

Results

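The 54 genes described here are expressed or act mainly in G2 and mitosis, and were listed by gene symbol for their function. The rule uses no measured value, but the list was drawn up with earlier results of these data known. They cover the kinases and cyclins of mitotic entry, the chromosomal passenger complex, the spindle checkpoint, anaphase proteolysis, the kinetochore, spindle motors, spindle assembly factors, condensin and cytokinesis. Of the 54 genes, 47 had at least 1 named probe among the 22523 probes of the array (49 probes in all), and 44 had a probe bright enough to be tested (46 of the 9193 tested probes, which name 8165 genes). No named probe was found for Birc5, Top2a, Ncaph, Pttg1, Ckap2, Nek2 and Tacc3. The probes of Ccnb1, Bub3 and Cenpa stayed under a signal of 150 on all 12 arrays (105 to 138 over the 3 genes), and these genes entered no test.

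Gene expression was profiled on Illumina rat arrays in the rat hepatoma cell line FaO. Untreated cells made up 3 arrays. A further 7 arrays held cells treated with 500 μM α-lipoic acid (α-LA), a cofactor of mitochondrial enzymes and a thiol antioxidant, for 6, 18, 24, 30, 42, 48 or 72 h, and 2 arrays held cells treated with 0.1 μM thapsigargin (TG), a blocker of the calcium pump of the endoplasmic reticulum, for 18 or 24 h by the sample titles. Treated cells were in medium with 2% fetal calf serum, less than in the growth medium, and the serum and vehicle of the untreated cells are not stated separately, so that their part in any difference from the controls was not tested. The α-LA dose was repeated every day and TG was given once, and each RNA came from 3 pooled wells. Every treated time had 1 array, so that the early time point group (18, 24 and 30 h) and the late group (42, 48 and 72 h), which the study took from clustering of these same arrays, use different hours in place of replicates. No source used here gives the harvest time of the controls or says that they were separate cultures, and the protocol text gives TG hours (6 and 18 h) other than the titles. The p-values therefore rest on the spread between arrays, which may be partly technical.

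Values are quantile-normalised signals, a brightness with background still in it, and between 8409 and 8422 probes per array were at or above 150. Hepatocyte markers were bright, with summed signals over 9 of 10 listed genes of 91686 to 111848 in the controls. This sum was 60766 to 79456 in the early group, 53583 to 75837 in the late group and 41649 to 41792 after TG. The defining hepatocyte markers Hnf4a and Apob stayed under 150 on every array. Of listed markers of cholangiocytes, endothelial cells, macrophages and stellate cells, 16 genes had a probe, and of these only Sox9 was bright enough to be tested, with 14 under 150 on every array. Control 1 stood slightly above the other controls over the mitosis genes, with a median log2 difference of 0.17.

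Mitotic genes are transcribed in a wave late in the cell cycle. The kinase Cdk1 with its cyclin partners starts mitosis, the checkpoint holds anaphase until every kinetochore is attached to spindle microtubules, the anaphase-promoting complex then marks cyclins and securin for destruction, and the central spindle directs cytokinesis. In human and mouse cells many of these genes share a repressor, the DREAM complex, and activators that include B-MYB and FOXM1, which act through a short promoter element named CHR, while NF-Y binds CCAAT boxes in the same promoters. Their mRNA levels are commonly read as a measure of proliferation.

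α-LA lowered nearly the whole set. In the early group, 42 of the 44 tested genes were lower than control (limma, adjusted p under 0.05) and none was higher, while 15.7% of all tested probes were lower and 16.6% higher. In the late group, 43 of 44 were lower and none was higher, against 17.7% and 19.1% of all probes, and the median log2 change of the members deepened from -1.16 to -1.92. The corresponding median over all tested probes was 0.01 and 0.02. On arrays of a pooled culture, fewer cells in G2 and mitosis and less of each mRNA per such cell cannot be told apart.

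The change in level was large in the late group, with 40 genes at least 2-fold and 21 at least 4-fold below the controls, against 3.98% and 0.772% of all probes. The largest was that of Nuf2, an 8.12-fold fall, and the smallest among those that passed the test was that of Cenpf, a 1.75-fold fall. All 44 genes were lower on each early array than on any control (21.5% of all probes), and 43 were lower on each late array than on any control (24.2%). The exception in the late group was Ccnb2, which encodes cyclin B2 and is described with the kinases below.

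**Figure D1:**
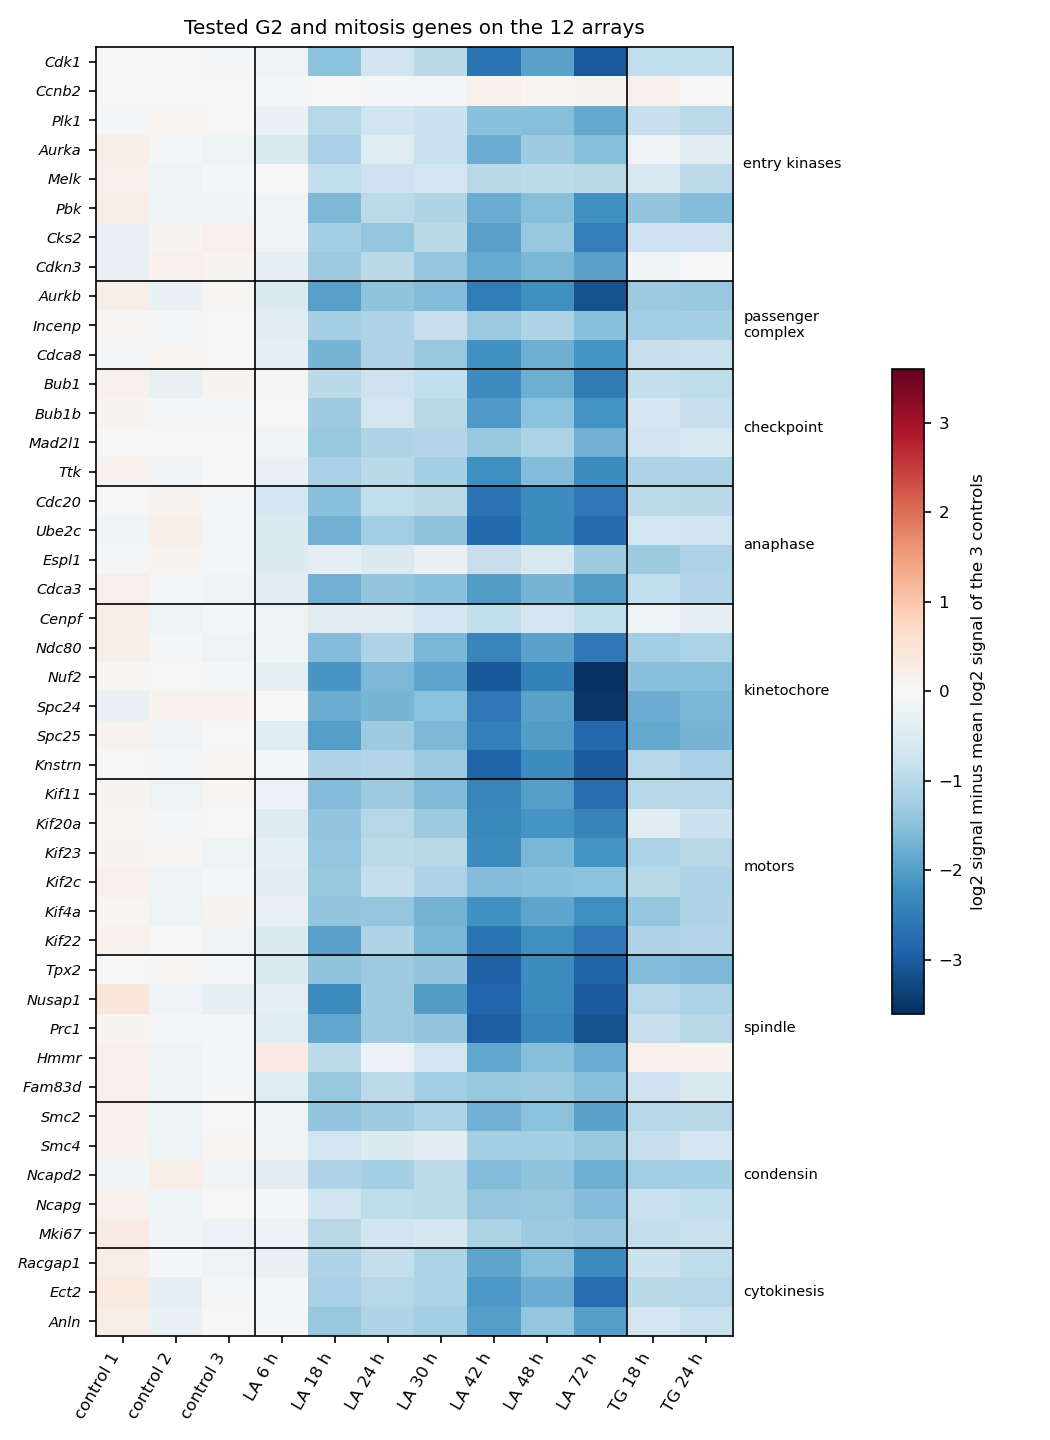
Each row is a tested gene and each column an array, grouped by role from entry kinases at the top to cytokinesis at the bottom; colour is the log2 signal minus the mean log2 signal of the 3 controls, blue for lower and red for higher. Nearly all rows turn blue from 18 h of α-LA and darkest at 42 and 72 h, whereas Ccnb2 stays pale throughout and Hmmr and Cdkn3 stay pale under TG.

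The promoters of the listed genes, whether or not they had a tested probe, were read for the letters of these shared elements. RefSeq windows of 300 bases (250 before the start site and 50 after it, build GRCr8) were available for 48 of the 54 genes, in 50 windows. Aurkb, Incenp, Tpx2, Ube2c, Racgap1 and Pbk, which fell in both α-LA groups, had no window. Genes without a tested probe had windows, so the shares below are those of the list and not of the genes that fell. TTTGAA, the CHR letters, lay on either strand in 37 of the 50 windows (74%), against 18.3% of all 33469 windows. CCAAT lay in 38 (76%) against 37.5%, and both lay in 31 (62%) against 7.41%. The variant TTCGAA was found in 3 windows (6%, against 1.69%). A CHR with the CDE element upstream of it, searched as GCGG, then any 4 bases, then TTTGAA (so that each is also a TTTGAA match), lay in 3 windows (6%), those of Cdk1, Cenpf and Nuf2, and in 20 of all windows (0.0598%). A match describes the letters of the window and no binding was measured.

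The 150 bases before the start site are shown for 5 genes that fell in both α-LA groups and carry both elements or, for Bub1, neither, and for Ccnb2, whose probe was too near the minimum signal, also in the controls, to show a fall. Capitals mark TTTGAA and CCAAT, the latter read as ATTGG where it lies on the other strand.
Cdk1, chr20:19265143-19265292, plus strand: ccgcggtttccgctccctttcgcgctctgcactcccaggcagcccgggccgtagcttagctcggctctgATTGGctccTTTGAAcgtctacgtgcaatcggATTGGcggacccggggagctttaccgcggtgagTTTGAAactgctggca
Cdc20, chr5:137255800-137255949, minus strand: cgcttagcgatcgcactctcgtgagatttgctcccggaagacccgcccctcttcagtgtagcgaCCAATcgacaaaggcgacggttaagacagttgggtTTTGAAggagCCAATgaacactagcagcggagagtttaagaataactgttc
Kif23, chr8:71320585-71320734, minus strand: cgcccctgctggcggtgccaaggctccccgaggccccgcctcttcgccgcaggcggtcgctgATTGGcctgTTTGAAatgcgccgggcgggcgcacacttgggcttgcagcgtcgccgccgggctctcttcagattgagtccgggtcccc
Prc1, chr1:143659331-143659480, plus strand: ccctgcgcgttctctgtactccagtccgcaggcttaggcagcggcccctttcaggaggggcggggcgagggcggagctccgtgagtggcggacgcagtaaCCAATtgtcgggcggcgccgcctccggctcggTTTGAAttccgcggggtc
Bub1, chr3:135504922-135505071, minus strand: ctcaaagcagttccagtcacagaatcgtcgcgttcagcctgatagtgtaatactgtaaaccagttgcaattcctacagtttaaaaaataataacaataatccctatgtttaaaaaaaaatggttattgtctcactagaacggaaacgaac
Ccnb2, chr8:79981659-79981808, minus strand: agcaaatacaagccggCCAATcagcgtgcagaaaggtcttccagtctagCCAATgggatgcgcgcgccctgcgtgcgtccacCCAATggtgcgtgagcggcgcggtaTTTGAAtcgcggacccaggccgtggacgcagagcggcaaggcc
The TTTGAA nearest the start site began at position -16 in Cdk1, -18 in Prc1, -43 in Ccnb2, -51 in Cdc20 and -79 in Kif23, counted from the start site. Of the 50 windows, 6 held neither element (12%, against 51.6% of all), Bub1 among them.

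Among the genes of mitotic entry, 7 of 8 tested members fell in each α-LA group, against 15.7% of all probes early and 17.7% late. Their late median log2 change was -1.71. Cdk1, the kinase that drives entry into mitosis, had signals of 5466, 5396 and 5240 in the controls, 4738 at 6 h, 1916, 3248 and 2736 at 18, 24 and 30 h, and 871, 1410 and 654 at 42, 48 and 72 h. Its signals after TG were 2900 and 2888. All treated arrays lay below the controls, and the late group did not overlap with the early group or with TG. The log2 change of Cdk1 was -1.06 ± 0.25 (SE) in the early group (adjusted p = 0.0063) and -2.53 ± 0.25 in the late group (adjusted p = 1.3e-05), or 5.77-fold lower.

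Cks2, a small subunit that binds cyclin-dependent kinases, had signals of 5599, 7212 and 7678 in the controls, 6180 at 6 h, 2898, 2585 and 3480 in the early group, 1730, 2616 and 1219 in the late group, and 4048 and 4062 after TG. It was 3.83-fold lower in the late group (adjusted p = 6.0e-05). The phosphatase Cdkn3, which acts on cyclin-dependent kinases, had signals of 991, 1339 and 1278 in the controls, 938 at 6 h, 481, 610 and 452 in the early group, 338, 383 and 308 in the late group, and 1073 and 1196 after TG. Its α-LA arrays from 18 h on lay below every control, whereas its TG arrays lay within the range of the controls.

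Of the other entry kinases, late log2 changes were -1.84 ± 0.20 for Pbk, a mitotic kinase, -1.62 ± 0.12 for Plk1, the polo-like kinase of entry and spindle assembly, -1.54 ± 0.18 for the centrosomal kinase Aurka and -0.98 ± 0.10 for Melk, and all passed the test. Cyclin B2 (Ccnb2) had signals of 147, 151 and 147 in the controls, 144 at 6 h, 146, 143 and 144 in the early group, 166, 157 and 158 in the late group, and 165 and 149 after TG. Its late log2 change was 0.11 ± 0.08 (adjusted p = 0.31), and its probe stayed close to the minimum signal of 150 on every array, controls included.

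The chromosomal passenger complex corrects faulty kinetochore attachments and later acts in cytokinesis. All 3 of its tested members fell in both groups, against 15.7% and 17.7% of all probes. Its kinase Aurkb had signals of 3026, 2235 and 2720 in the controls, 1825 at 6 h, 681, 976 and 887 in the early group, 463, 575 and 298 in the late group, and 1076 and 1030 after TG. This was the deepest late change of the complex, 6.14-fold (adjusted p = 4.4e-06). Cdca8, which encodes borealin, had signals of 1385, 1492 and 1407 in the controls, 1137 at 6 h, 448, 668 and 558 in the early group, 314, 419 and 330 in the late group, and 801 and 813 after TG. Its scaffold Incenp changed least, with a late log2 change of -1.31 ± 0.13.

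All 4 tested genes of the spindle checkpoint fell in both groups (15.7% and 17.7% of all probes), with a late median of -1.95. The checkpoint kinase Bub1 had signals of 1582, 1168 and 1511 in the controls, 1436 at 6 h, 717, 833 and 763 in the early group, 292, 413 and 239 in the late group, and 783 and 743 after TG. Its 6 h array lay within the control range and its late arrays lay below all others. Ttk, the kinase MPS1 that starts checkpoint signalling, had signals of 1202, 1031 and 1100 in the controls, 924 at 6 h, 489, 566 and 482 in the early group, 242, 378 and 230 in the late group, and 516 and 513 after TG. Bub1b, the BubR1 subunit of the mitotic checkpoint complex, had signals of 806, 740 and 727 in the controls, 751 at 6 h, 308, 478 and 379 in the early group, 185, 270 and 170 in the late group, and 500 and 427 after TG. For these 3 genes, late log2 changes were -2.20, -2.01 and -1.89, all larger in size than that of Mad2l1, the MAD2 component (-1.42 ± 0.14).

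In anaphase and proteolysis, 3 of 4 tested genes fell in the early group (15.7% of all probes) and all 4 in the late group (17.7%). Cdc20, the activator of the anaphase-promoting complex, had signals of 2115, 2291 and 2037 in the controls, 1393 at 6 h, 763, 1170 and 1064 in the early group, 340, 449 and 359 in the late group, and 1118 and 1090 after TG. Ube2c, the ubiquitin-conjugating enzyme of that complex, had signals of 1294, 1680 and 1383 in the controls, 1006 at 6 h, 433, 604 and 532 in the early group, 209, 296 and 212 in the late group, and 919 and 884 after TG. Both lay below every control already at 6 h, and were 5.65-fold and 6.12-fold lower in the late group. Cdca3, a trigger of mitotic entry that works through ubiquitin ligases, had a late log2 change of -1.90 ± 0.13.

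The order of groups differed for Espl1, which encodes separase, the protease that cuts cohesin at anaphase. Its signals were 890, 977 and 898 in the controls, 661 at 6 h, 723, 639 and 770 in the early group, 522, 622 and 381 in the late group, and 380 and 426 after TG. All early arrays lay below the controls, yet the log2 change of -0.38 ± 0.15 did not pass the test (adjusted p = 0.085), and the lowest signals were those of TG and of 72 h of α-LA. The late change was -0.89 ± 0.15 (adjusted p = 0.00086).

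All 6 tested kinetochore genes fell in both groups (15.7% and 17.7% of all probes), with a late median of -2.54. Nuf2, a subunit of the NDC80 complex that holds microtubule ends, had signals of 6655, 6371 and 6021 in the controls, 5011 at 6 h, 1476, 2050 and 1689 in the early group, 759, 1169 and 536 in the late group, and 2225 and 2198 after TG. The late log2 change was -3.02 ± 0.22 (adjusted p = 2.0e-06), and its other probe, which was dimmer, gave -2.77 ± 0.19. Spc24, of the same complex, had signals of 3706, 4888 and 4873 in the controls, 4414 at 6 h, 1286, 1383 and 1613 in the early group, 750, 1182 and 396 in the late group, and 1282 and 1437 after TG. The late log2 changes of the remaining subunits were -2.43 ± 0.20 for Spc25 and -2.29 ± 0.18 for Ndc80.

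Knstrn, the spindle and kinetochore protein kinastrin, was close to the controls at 6 h and lower by a further step in the late group. Its signals were 3109, 2958 and 3163 in the controls, 2975 at 6 h, 1413, 1481 and 1275 in the early group, 419, 642 and 388 in the late group, and 1515 and 1371 after TG. Cenpf, a large protein of the outer kinetochore, had signals of 308, 230 and 255 in the controls, 229 at 6 h, 197, 200 and 168 in the early group, 141, 167 and 143 in the late group, and 238 and 204 after TG. Its control signals were the lowest of this group, its late arrays straddled the minimum of 150, and its late log2 change was -0.81 ± 0.13 (adjusted p = 0.00042).

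All 6 spindle motors fell in both groups (15.7% and 17.7% of all probes), with a late median of -2.18. Kif22, the chromokinesin KID, had signals of 3822, 3435 and 3270 in the controls, 2431 at 6 h, 895, 1655 and 1121 in the early group, 566, 753 and 586 in the late group, and 1656 and 1673 after TG. Kif11, the Eg5 motor that separates the spindle poles, had signals of 1514, 1238 and 1477 in the controls, 1218 at 6 h, 475, 570 and 468 in the early group, 273, 354 and 209 in the late group, and 684 and 686 after TG. A dimmer probe of Kif11 gave a late log2 change of -0.74 ± 0.12, against -2.37 ± 0.17 for the probe that stands for the gene, and it lay under 150 on all late arrays. Kif23, the MKLP1 motor of the central spindle, had signals of 1216, 1173 and 1030 in the controls, 891 at 6 h, 433, 590 and 572 in the early group, 233, 362 and 254 in the late group, and 518 and 572 after TG. Kif20a, Kif4a and Kif2c had late log2 changes of -2.28, -2.09 and -1.52.

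All 5 tested genes of spindle assembly and the midzone fell in both groups (15.7% and 17.7% of all probes), with a late median of -2.68. Prc1, which bundles antiparallel microtubules in the central spindle, had signals of 4122, 3735 and 3646 in the controls, 2804 at 6 h, 1046, 1583 and 1432 in the early group, 494, 735 and 438 in the late group, and 2154 and 1922 after TG. Tpx2, an activator of Aurora A and a microtubule nucleator, had signals of 3394, 3427 and 3252 in the controls, 2361 at 6 h, 1234, 1347 and 1262 in the early group, 446, 697 and 458 in the late group, and 1144 and 1097 after TG. They were 7.07-fold and 6.43-fold lower in the late group. Nusap1, a microtubule-bundling protein, had signals of 1638, 1120 and 964 in the controls, 952 at 6 h, 247, 500 and 302 in the early group, 166, 247 and 152 in the late group, and 599 and 548 after TG. Control 1 stood apart for Nusap1, and its late change was 6.58-fold.

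Hmmr, a hyaluronan receptor that also binds spindle microtubules, followed another course within this group. Its signals were 746, 598 and 622 in the controls, 794 at 6 h, 342, 562 and 415 in the early group, 179, 224 and 189 in the late group, and 743 and 719 after TG. It was the only member above every control at 6 h, with 25.9% of all probes so placed, and its TG arrays lay within the control range. Its early change was -0.60 ± 0.17 and its late change -1.73 ± 0.17 on the log2 scale. Fam83d, which recruits casein kinase to the spindle, had a late change of -1.41 ± 0.13.

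Condensin and chromosome structure had the smallest late median, -1.44, although all 5 tested genes fell in both groups (15.7% and 17.7% of all probes). Signals of these genes ran from 349 (Ncapg) to 983 (Smc2) in the controls and from 133 (Ncapg) to 318 (Smc2) in the late group. Background in the signal limits how far such dim levels can fall, and its part in this rank was not tested. Smc2, the core ATPase subunit shared by both condensins, had signals of 983, 791 and 872 in the controls, 775 at 6 h, 331, 364 and 398 in the early group, 264, 318 and 230 in the late group, and 429 and 440 after TG. Its partner Smc4 had signals of 662, 532 and 628 in the controls, 553 at 6 h, 377, 426 and 452 in the early group, 266, 265 and 237 in the late group, and 342 and 394 after TG. Late log2 changes were -1.71 ± 0.13 for Smc2 and -1.24 ± 0.11 for Smc4, which was the smallest of the group. Ncapd2, a non-SMC subunit of condensin I, had signals of 520, 648 and 502 in the controls, 427 at 6 h, 255, 243 and 287 in the early group, 186, 204 and 164 in the late group, and 233 and 242 after TG. Ncapg, of the same complex, and Mki67, the Ki-67 proliferation marker that coats mitotic chromosomes, had late log2 changes of -1.44 and -1.28.

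The 3 genes of cytokinesis all fell in both groups (15.7% and 17.7% of all probes), with a late median of -1.90. Ect2, the exchange factor that activates RhoA at the cleavage site, had signals of 1552, 970 and 1173 in the controls, 1175 at 6 h, 537, 592 and 549 in the early group, 286, 352 and 181 in the late group, and 611 and 596 after TG. Racgap1, its activator on the central spindle, had signals of 804, 656 and 592 in the controls, 562 at 6 h, 323, 378 and 311 in the early group, 183, 233 and 141 in the late group, and 396 and 358 after TG. They were 4.59-fold and 3.73-fold lower in the late group, and the contractile ring scaffold Anln was 3.44-fold lower.

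Over time the fall was not even. At 6 h the median change of the 44 genes was -0.27 on the log2 scale, 83.1% of the control level, and 31 of the genes lay below every control, against 28.6% of all probes. This array has no replicate and no test, and none of the 44 was 2-fold lower on it (0.0544% of all probes). The median was -1.37 at 18 h, -1.02 at 24 h and -1.13 at 30 h, then -2.02 at 42 h, -1.60 at 48 h and -2.19 at 72 h. The number of genes at least 2-fold below the controls was 36, 23 and 27 on the early arrays, where 2.84%, 3.03% and 3.57% of all probes reached that fold. It was 41, 40 and 42 on the late arrays, against 4.08%, 4.13% and 4.06% of all probes.

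A partial return toward control levels at 24 h and again at 48 h was shared by most of the set. From 18 to 24 h, 39 of the 44 genes were higher at the later time, with a median step of 0.30, whereas 50.3% of all tested probes were higher. From 30 to 42 h, 43 genes were lower, against 50.5% of all probes. From 42 to 48 h, 40 were higher, with a median step of 0.35, against 49.9% of all probes. The whole course, higher at 24 than at 18 h, lower at 42 than at 30 h and higher at 48 than at 42 h, was shown by 36 of 44 genes (81.8%) and by 16.3% of all probes. It was not planned and follows the steps of these same genes, so its share among them is a description and no test. The genes without this course were Ccnb2, Cks2, Espl1, Plk1, Mki67, Ncapd2, Ncapg and Smc4, among them 4 of the 5 tested condensin and chromosome structure genes. Some missed it by small differences between single arrays. Smc4 had 266 at 42 h and 265 at 48 h, and Plk1 had 171 and 167. Each of these hours is 1 array, and the labels do not give the hour of the daily α-LA dose, whose part in this course was not tested.

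**Figure D2:**
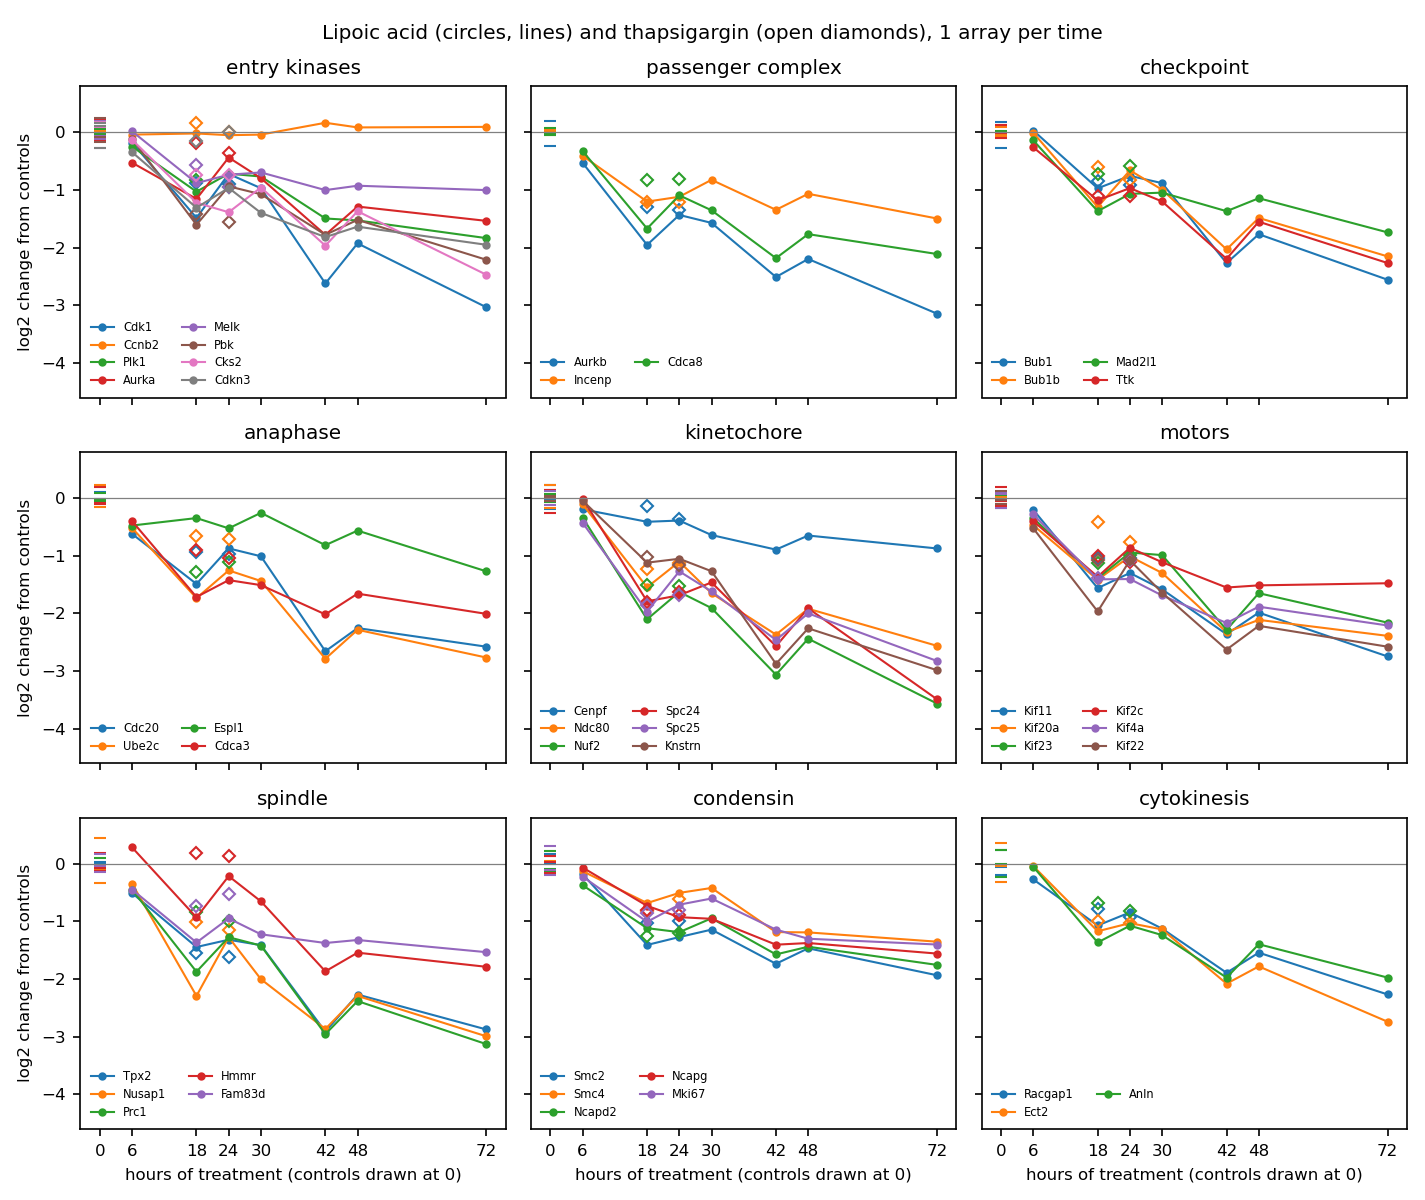
Each panel is a role group; the x axis is hours of treatment and the y axis the log2 change from the mean of the controls. Lines with circles are α-LA, open diamonds TG at 18 and 24 h, and dashes at 0 the 3 controls. Most lines dip at 18 h, recover in part at 24 h, and dip again at 42 and 72 h with another partial recovery at 48 h.

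The late and early groups were compared directly. Of the 44 genes, 32 were lower in the late than in the early group (7.23% of all probes) and none was higher, with a median log2 difference of -0.80. The groups came from clustering of these same arrays, so their p-values are not those of groups fixed beforehand. No controls of matched hours are known, and the part of longer culture and more daily doses in the late group was not tested. The late arrays all lay below the early arrays for 37 genes (16.1% of all probes). Knstrn differed most (-1.56 ± 0.16, adjusted p = 0.00086), followed by Cdk1 (-1.47 ± 0.25), Cdc20 (-1.37 ± 0.16), Bub1 (-1.33 ± 0.18), Prc1 (-1.30 ± 0.19) and Tpx2 (-1.29 ± 0.15). Between neighbours in this order the estimates differ by no more than their standard errors.

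The genes differed in how much of the late log2 change was present at 18 to 30 h. It was 34.6% for Hmmr, 39.6% for Bub1 and 41.9% for Cdk1, but 81.7% for Cdca3, 82.2% for Mad2l1 and 83.5% for Fam83d. These last 3 were among the 12 genes whose late and early groups did not differ by the test, with Ccnb2, Cenpf, Cks2, Espl1, Incenp, Kif2c, Melk, Nusap1 and Pbk. For genes with dim probes the background in the signal limits how far a level can fall, since Mad2l1 reached 124 and Fam83d 146 at 72 h. All 5 condensin and chromosome structure genes and all 3 cytokinesis genes were lower in the late than in the early group (7.23% of all probes).

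**Figure D3:**
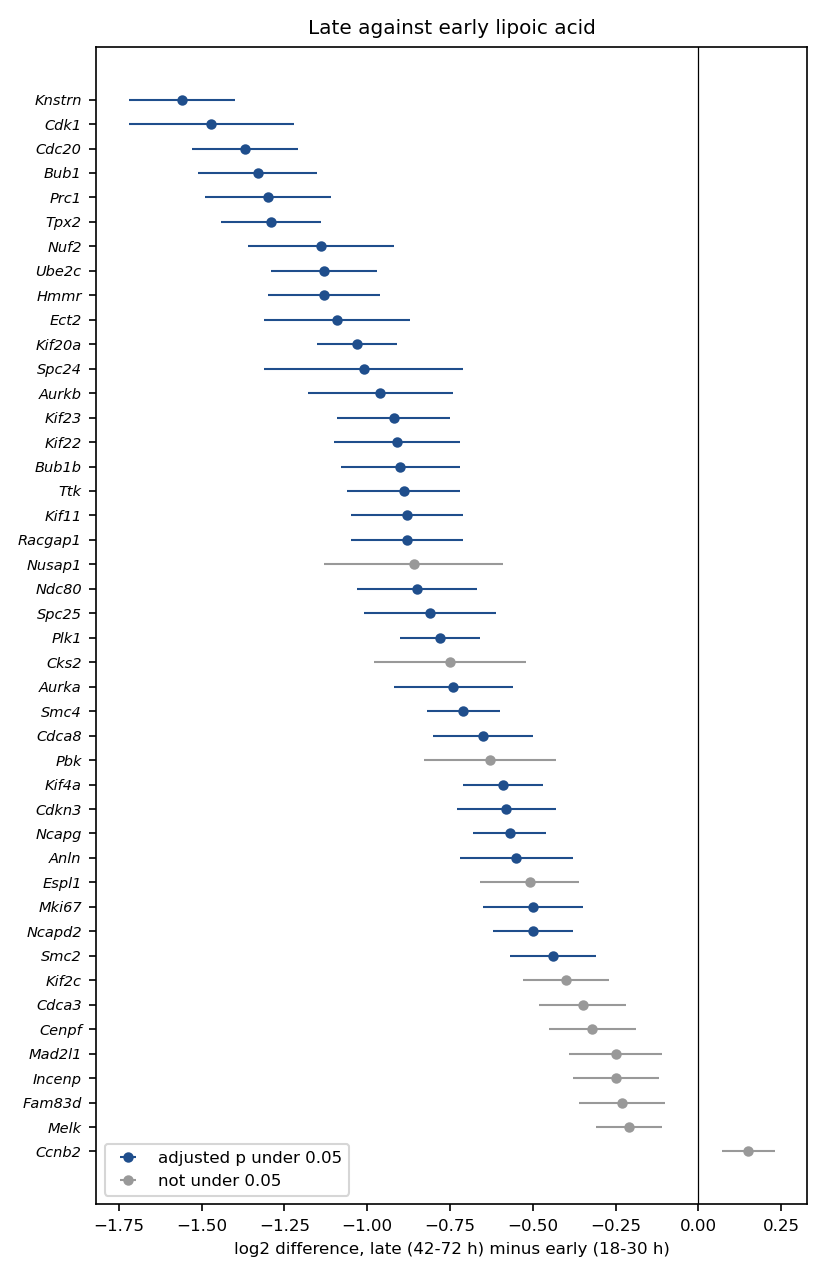
The x axis is the log2 difference between late and early α-LA, with its standard error as a bar, and each row is a tested gene, ordered by that difference. The 32 genes that passed the test are blue and the other 12 grey; Knstrn lies farthest left at -1.56 and Ccnb2 is the only gene to the right of 0.

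TG lowered most of the same set, to a lesser depth than late α-LA. After TG, 39 of 44 genes were lower than in the controls and none was higher, with a median log2 change of -0.93 and 18.7% of all probes lower. The TG arrays lay below every control for 40 genes (31.5% of all probes). The largest falls were those of Spc25 (-1.77 ± 0.22), Spc24 (-1.71 ± 0.31), Tpx2 (-1.58 ± 0.16), Nuf2 (-1.52 ± 0.24) and Pbk (-1.48 ± 0.21). The 18 h and 24 h arrays were close, with medians of -0.89 and -0.98 and 19 genes at least 2-fold lower on each (3.91% and 4.05% of all probes). Between them, 18 of the 44 genes were higher on the 24 h array and 26 lower, against 51.3% and 48.3% of all probes.

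The 5 genes that did not pass the test after TG were Ccnb2, Aurka, Cdkn3, Cenpf and Hmmr. Their log2 changes were 0.08 ± 0.09, -0.28 ± 0.19, -0.07 ± 0.16, -0.25 ± 0.14 and 0.16 ± 0.18. Of these, Aurka, Cdkn3, Cenpf and Hmmr had fallen in both α-LA groups. The early α-LA and TG comparisons share the 3 control arrays, so the agents were set against each other directly.

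TG and early α-LA differed for 10 of the 44 genes. TG was higher for 9, or 20.5% of the set against 13.6% of all probes, and lower for 1, or 2.27% against 13.9%. Cdkn3 differed most, with TG 2.22-fold above early α-LA (log2 1.15 ± 0.16, adjusted p = 0.0002). It was followed by Ube2c (0.80 ± 0.17), Hmmr (0.76 ± 0.18), Kif20a (0.66 ± 0.14), Prc1 (0.61 ± 0.20), Cdca3 (0.58 ± 0.14), Cdca8 (0.55 ± 0.16), Fam83d (0.55 ± 0.14) and Mad2l1 (0.51 ± 0.15). The gene that TG lowered more was Espl1, 1.76-fold below early α-LA (-0.82 ± 0.17, adjusted p = 0.0029), with the TG signals of 380 and 426 under all early signals, the lowest of which was 639.

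With the hours matched, at 18 and 24 h by the titles, 11 genes differed, 10 higher under TG (12% of all probes) and 1 lower (12.8%). These were the same 10 genes with Cks2 added (0.57, adjusted p = 0.023). No gene of the kinetochore, condensin or cytokinesis groups was among them, and 3 of the 5 spindle assembly and midzone genes were. That the other 33 did not pass the test does not show that the agents act alike on them, since only 2 TG arrays were compared. Leaving out either TG array brought the number of higher genes from 10 to 2, and it was 4 without the α-LA array of 18 h and 19 without that of 24 h. Each of these fits has an arm of 1 array, which is assumed to vary like the other groups. For TG against the early group, the 9 higher genes became 3 without the TG array of 18 h, 5 without that of 24 h (again with a lone TG array) and 14 without the α-LA array of 24 h. Cdkn3, Ube2c and Espl1 passed the test against the early group under every alternative run.

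Against late α-LA, TG was higher for 38 of the 44 genes and lower for none, with a median of 1.04 and 12.9% of all probes higher, but the hours then differ. The TG arrays both lay above every late array for 39 genes (27.8% of all probes). The largest differences were those of Ube2c (1.93 ± 0.17), Prc1 (1.91 ± 0.20), Hmmr (1.90 ± 0.18), Cdkn3 (1.73 ± 0.16) and Kif20a (1.69 ± 0.14). The 6 genes that did not differ by the test were Ccnb2, Espl1, Incenp, Melk, Ncapd2 and Pbk. All 6 motors, all 6 kinetochore genes and all 3 cytokinesis genes were higher under TG than under late α-LA. So were all 4 tested checkpoint genes and all 5 tested genes of spindle assembly and the midzone.

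**Figure D4:**
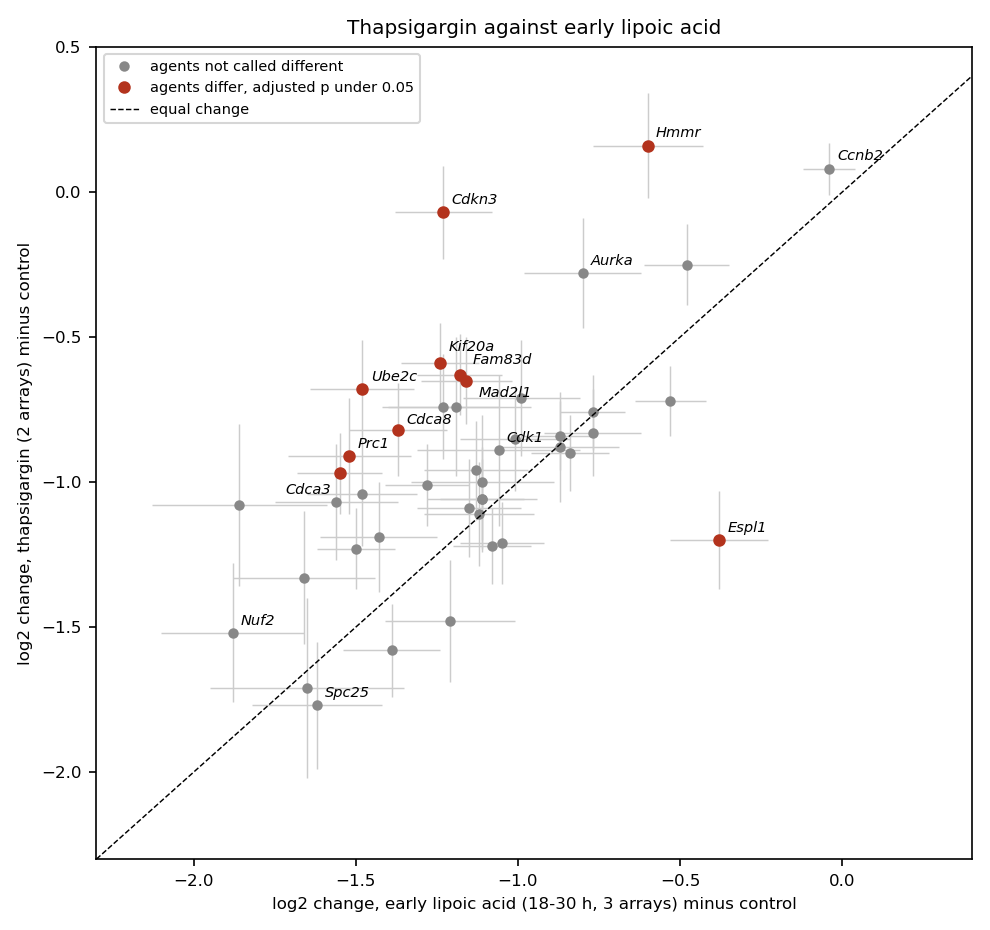
Each point is a tested gene, with the log2 change of early α-LA from the controls on the x axis and that of TG on the y axis; bars are standard errors and the dashed line marks equal change. Red points are the 10 genes that differed between the agents by the direct test, 9 above the line and Espl1 below it.

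Other genes of mitosis were read from lists by function. Of 26 tested among 41 further mitosis genes, 25 were lower in the late group (17.7% of all probes) and none higher, with a median of -1.46. Cyclin A2 (Ccna2) fell most (-3.14 ± 0.22), beyond any member of the main set, followed by the minus-end motor Kifc1 (-2.55 ± 0.23), the spindle pole protein Aspm (-2.33 ± 0.12) and the kinetochore fibre protein Dlgap5 (-2.29 ± 0.14). After TG, 21 of these 26 were lower (18.7% of all probes).

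Further lists held the proteins that stay at the centromere through the cell cycle, the core of the anaphase-promoting complex, and cohesin. Of 9 tested genes of the constitutive centromere network and its Mis12 partners, 6 were lower and 1 higher in the late group, against 17.7% and 19.1% of all probes. Cenpt, Cenpk and Dsn1 changed by -1.45, -1.38 and -0.93, and Nsl1, a subunit of the Mis12 complex, was 2-fold higher in the late group (adjusted p = 0.00029) and rose by 1.74 on the log2 scale after TG. Of 12 tested core genes of the anaphase-promoting complex and its E2 enzyme, 5 were lower and none higher, against the same shares, with a median of -0.15. Ube2s, Anapc5, Anapc1 and Cdc26 changed by -0.88, -0.79, -0.61 and -0.54. In cohesin, which holds sister chromatids together, 4 of 7 tested genes were lower (17.7% of all probes), with Smc1a at -1.18, Rad21 at -0.88, Smc3 at -0.67 and Pds5b at -0.44, and after TG these changes were -1.34, -0.56, -1.18 and -0.85.

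Regulators of entry and of transcription were read in the same way. Of 9 tested genes that control mitotic entry, 6 were lower and 1 higher in the late group, against 17.7% and 19.1% of all probes. Their median late log2 change was -0.76 (-0.01 in the early group), and the highest late change was 0.63. The anaphase-promoting complex inhibitor Fbxo5 changed by -1.92 ± 0.18, the Aurora A activator Bora by -1.23, the checkpoint kinase Chek2 by -1.13 and the Cdk1-inhibiting kinase Pkmyt1 by -1.05. Of 18 tested regulators of mitotic gene transcription, 9 were lower and 2 higher, against the same 17.7% and 19.1%. Their median late log2 change was -0.26, and the highest was 0.44. Among the lower genes, E2f8 was at -1.84 ± 0.16, Foxm1 at -1.59 ± 0.12, Rbl2 at -0.96 and E2f1 at -0.81. Foxm1, the activator of late cell cycle genes, was at -0.93 in the early group and -0.60 after TG.

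Among 12 tested tubulin and centrosome genes, 10 were lower in the late group and none higher, against 17.7% and 19.1% of all probes. The microtubule destabiliser Stmn1 changed by -1.87 ± 0.19, the β-tubulins Tubb4b and Tubb5 by -1.62 and -1.51, and γ-tubulin (Tubg1) by -1.28. After TG, Stmn1 changed by -0.51 (adjusted p = 0.068), while Tubb5 changed by -1.69 ± 0.19.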

How the data were processed

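The deposited values are intensities (quantile-normalised linear signals, made by the authors from BeadStudio 3.0.19.0 output per the submitters' notes), with background still in them. Any subtraction of background is not stated in the sources. A further table with 24 columns of values before normalization, named for no sample, was not used. Probes were named from the platform annotation (13793 probes) or the study's gene table (1682), and 7048 stayed unnamed. The brightest probe stood for a gene, and genes given with every array were the brightest 3 (or 2) of each role group and those that went against their group.

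Signals were log2-transformed, and probes at or above 150 on at least 3 arrays were tested by lmFit and eBayes in limma 3.58.1 (R 4.3.3). P-values were adjusted over 9193 probes by Benjamini-Hochberg. Control, early and late α-LA arrays were fitted together, TG was added as a further group, and a fit of control, TG and the 18 and 24 h α-LA arrays matched the hours. The 6 h array entered no test. The script was tested on simulated data. The number of arrays limits the precision. Alternatives were cyclic loess, an intensity trend, background subtraction (percentile 1, offset 50), other filters and groupings, a block by hour, and leaving out each array. All 6 α-LA arrays from 18 h as a single group, the combined course over the steps up to 48 h, and the CDE motif were added after seeing the data. The members, lists and tests were chosen with earlier results of these data known, so they are not independent of them.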

Additional observations from a re-analysis of the deposited data

Results flagged for a closer look

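TG and early α-LA differed by a direct test (limma, adjusted p under 0.05) for 10 of the 44 tested genes. Of all tested probes, 27.5% did, so the count is no mark of this set. The log2 difference of TG from early α-LA was 1.15 for Cdkn3, 0.80 for Ube2c, 0.76 for Hmmr, 0.66 for Kif20a, 0.61 for Prc1, 0.58 for Cdca3, 0.55 for Cdca8, 0.55 for Fam83d and 0.51 for Mad2l1, and it was -0.82 for Espl1. TG was higher than late α-LA for 38 genes (12.9% of all probes), and late α-LA was lower than early α-LA for 32 (7.23%). No group had the 4 arrays needed to look for a sample far from the others.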

How the results depend on the processing

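No gene-level value that passed the test, either in the main fit or under an alternative, changed direction between them. Sign changes of values that passed in neither were not counted. Over 4888 gene-level values, 4678 stayed on the same side of the threshold, 146 fell short of it and 64 newly passed it, and all 692 for late α-LA against control stayed on the same side. The counts that moved by over 1.5 times did so only when an array was left out. Genes higher under TG than under α-LA at 18 and 24 h numbered 2 to 19 (10 with all arrays), and 1 to 2 were lower. Genes higher under TG than in the early group numbered 3 to 14 (9 with all arrays). Genes lower under TG than in the late group numbered 0 to 1. Genes lower in the late than in the early group numbered 23 to 35 when an array was left out (32 with all), 28 with no filter on dim probes and 37 in the fit of 4 groups. Where an arm was left with 1 array, that array was assumed to vary like the other groups. With the hour as a replicate block, pairing TG and α-LA at 18 and 24 h, 10 genes were higher and 1 lower, as without the block. Subtracting background, which widens folds by construction, moved the median log2 change to -1.29 in the early group and -2.23 in the late group. The true background is not known, so how far the folds given are understated by it cannot be read from this shift. Treated as a single group, the 6 α-LA arrays from 18 to 72 h left 43 genes lower than the controls. The share over all probes was not taken for this grouping. A median signal over 300 kept 30 genes, of which 29 fell early and 30 late. Of the 5060 probes so kept, 42.4% passed early and 46.5% late, in either direction. The cause of these shifts was not tested.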
